A study of Mus musculus with 6 samples.

Results

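Most of the genes examined here encode proteins that remove introns from messenger RNA precursors or regulate that removal. They were chosen by name: every probe set with a single gene symbol that starts with Srsf, Srrm, Hnrnp, Snrp, Sf3a, Sf3b or Prpf followed by a letter or digit, without Snrpn, together with Raver1 and Pym1. This gave 65 genes of 18193 measured by a probe set with a single symbol, and 189 probe sets of the 45037 tested. A probe set is a group of short oligonucleotides on the array that reads 1 transcript or a few related ones. Of the 65 genes, 47 had at least 2 probe sets and 18 had 1. One symbol, Srrm4os, is an antisense RNA that the rule takes in by its name. A further 11 probe sets with several symbols, 1 of them fitting the rule, were left out. The labelled cell type is mouse embryonic stem cells, and splicing factor genes are broadly used: 61 of the 65 genes had a brightest probe set with a mean of at least 6 on the log2 scale over the 6 arrays, and 156 of the 189 probe sets did. The exceptions were Srsf12, Srrm3, Srrm4 and Srrm4os. Hnrnpc gave the highest mean of the members, 13.36, and 1 probe set of Sf3b5 the lowest, 2.74.

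Introns are removed by the spliceosome, which is built anew on each intron from small nuclear ribonucleoproteins (snRNPs), particles of a short RNA with a ring of Sm proteins. The U2 snRNP, with its SF3a and SF3b subcomplexes, marks the branch site, and Prp proteins drive the assembly and the catalytic rearrangements. SR proteins, rich in arginine and serine, mostly help exons to be recognised, whereas heterogeneous nuclear ribonucleoproteins (hnRNPs) coat the transcript and often hold back splicing. Many of these genes make several isoforms, some of them degraded, so probe sets of 1 gene need not read the same RNA.

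RNA was measured on 6 Affymetrix mouse whole-genome arrays of total RNA from 3 clones of mouse embryonic stem cells (A1, B3 and C6) of the EBRTcH3 line, grown with LIF. In each clone the human GTF2I open reading frame, tagged with FLAG, sits at the Rosa26 locus behind a promoter that tetracycline keeps silent, and GTF2I encodes the transcription factor TFII-I. The induced group holds 1 array per clone after 24 h without tetracycline, and the uninduced group 1 array per clone kept in tetracycline (0 h without it), which gave 3 arrays per group. All 6 arrays thus carry the transgene, each replicate is a single selected clone, and the comparison asks which endogenous genes respond to the induction. The groups also differ in tetracycline itself, and no line without the transgene is among these arrays. A response to the transgene was therefore not tested apart from one to removing the drug. The titles name GTF2I, but the genotype entry reads GTF2IRD2 for the same arrays; the name in the titles is used here. No separate culture is named within a clone, so that p-values measure the spread between these arrays.

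Clone A1 ran opposite to the other clones in most of the probe sets at or above a mean of 6. Of the 17168 probe sets that reached a mean of 6, the induced minus uninduced difference of A1 had the other sign than both B3 and C6 in 60.3%, and all 3 clones moved the same way in 11.9%. The labels of the A1 arrays were kept as given, but no value here checks which of the 2 was the induced one. The paper's RT-PCR gave more transgene RNA in clone A1 after 24 h without tetracycline than at 0 h. It was not made on the arrays and does not show which array holds which RNA. With the pair of A1 arrays exchanged, every A1 difference would change sign and every comparison of A1 with the other clones would change. Among the 156 member probe sets that reached a mean of 6, A1 was opposite to both other clones in 85 (54.5%). All 3 clones moved the same way in 14 (9.0%). The control probe sets for 18S ribosomal RNA moved in the same clone pattern. After induction the 3′ set read 6.67 in A1, 9.04 in B3 and 9.15 in C6, against 7.76, 7.27 and 7.17 in the uninduced arrays of the same clones. The induced minus uninduced differences of the 3′, 5′ and middle 18S sets were -1.10, -0.58 and -0.84 in A1, 1.77, 2.52 and 1.92 in B3, and 1.98, 1.89 and 1.50 in C6. The part of this shift in the results below was not tested. Over the 6 arrays the 3′ minus 5′ difference lay between 0.06 and 0.15 for Gapdh, between 0.35 and 0.58 for Actb, between 1.02 and 1.61 for the pyruvate carboxylase control and between 1.32 and 2.11 for the transferrin receptor control. All 10 stem cell markers had a mean of at least 6, and their summed level was 15.78 to 15.91 in induced and 15.83 to 15.86 in uninduced arrays (log2 of the summed linear values). Of the marker genes of feeder fibroblasts 3 of 10 reached a mean of 6, with a summed level of 8.60 to 8.91 in induced and 8.69 to 8.85 in uninduced arrays. The counts were 2 of 6 for primitive endoderm (8.66 to 9.17 in induced and 8.83 to 9.13 in uninduced arrays), 3 of 6 for neuroectoderm (9.12 to 9.44 in induced and 9.03 to 9.49 in uninduced) and 2 of 5 measured for mesoderm (8.11 to 8.25 in induced and 8.08 to 8.23 in uninduced). Of these markers, 2 probe sets of Esrrb, a stem cell factor, passed the comparison of clones given below, with 0.90 and 1.02.

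**Figure D1:**
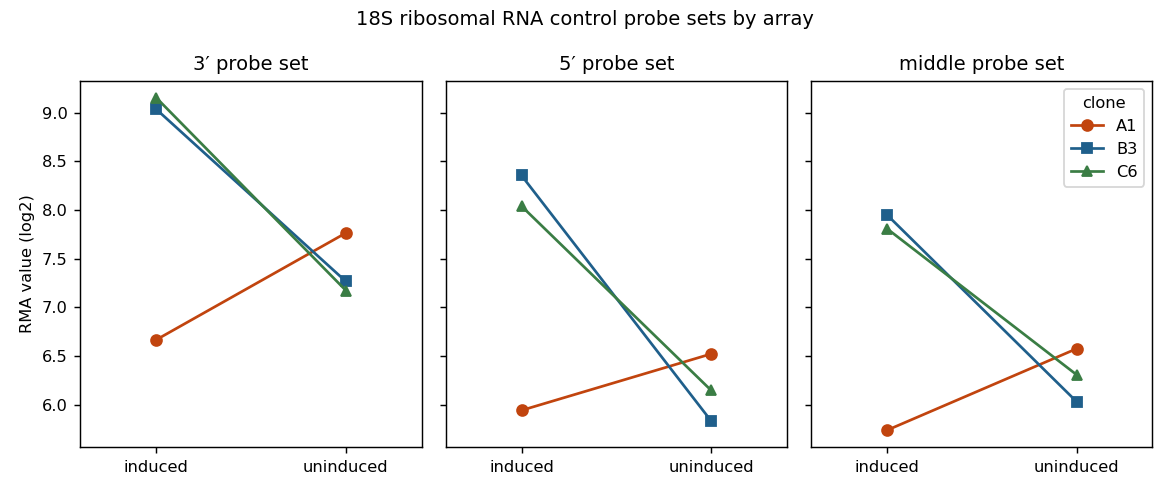
RMA values (log2, y axis) of the 3 control probe sets for 18S ribosomal RNA in the induced and the uninduced array of each clone, joined by a line per clone. The line of A1 slopes the other way than those of B3 and C6, whose induced arrays stand at 9.04 and 9.15 in the 3′ set.

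The promoters of 6 of the genes described below, those discussed at most length, are shown because a transcription factor was induced. They come from RefSeq on mouse build GRCm38.p6 and run from 250 bases before to 50 bases after the transcript start, on the strand of the gene. They lie at chr10:128747629-128747928 on the plus strand for Pym1 (the first of 2 listed starts), chr9:21091950-21092249 on the minus strand for Raver1, chr10:80798485-80798784 (plus) for Sf3a2, chr7:28810640-28810939 (plus) for Hnrnpl, chr17:23802937-23803236 (plus, the first of 2 starts) for Srrm2 and chr10:75517792-75518091 (plus) for Snrpd3. Capitals mark matches on either strand to CCAAT (the core of the site of the factor NF-Y), to GGATTA (a core bound by proteins of the TFII-I family), to CACGTG (a palindromic E-box) or to TATAAA; these motifs do not overlap one another here.
Pym1: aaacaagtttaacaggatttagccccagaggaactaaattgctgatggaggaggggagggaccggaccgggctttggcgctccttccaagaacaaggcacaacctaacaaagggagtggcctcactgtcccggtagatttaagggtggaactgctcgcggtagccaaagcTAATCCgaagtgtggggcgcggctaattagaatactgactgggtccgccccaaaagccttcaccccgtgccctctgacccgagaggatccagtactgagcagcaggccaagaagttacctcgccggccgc
Raver1: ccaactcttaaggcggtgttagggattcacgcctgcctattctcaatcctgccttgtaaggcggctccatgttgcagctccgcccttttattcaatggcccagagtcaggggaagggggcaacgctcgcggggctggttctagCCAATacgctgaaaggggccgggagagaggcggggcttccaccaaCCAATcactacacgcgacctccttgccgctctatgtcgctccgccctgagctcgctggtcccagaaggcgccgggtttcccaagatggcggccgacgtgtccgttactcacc
Sf3a2: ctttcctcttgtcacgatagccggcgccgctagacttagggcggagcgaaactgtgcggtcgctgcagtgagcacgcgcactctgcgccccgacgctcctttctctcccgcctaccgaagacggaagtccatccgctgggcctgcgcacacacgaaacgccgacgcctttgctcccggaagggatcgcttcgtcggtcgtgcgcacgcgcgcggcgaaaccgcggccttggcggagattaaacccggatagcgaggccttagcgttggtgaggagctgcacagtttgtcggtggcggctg
Hnrnpl: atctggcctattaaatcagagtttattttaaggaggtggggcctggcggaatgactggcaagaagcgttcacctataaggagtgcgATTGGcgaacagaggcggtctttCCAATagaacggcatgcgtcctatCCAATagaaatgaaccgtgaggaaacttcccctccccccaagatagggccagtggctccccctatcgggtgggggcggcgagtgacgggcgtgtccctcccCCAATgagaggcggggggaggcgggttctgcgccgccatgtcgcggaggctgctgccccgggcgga
Srrm2: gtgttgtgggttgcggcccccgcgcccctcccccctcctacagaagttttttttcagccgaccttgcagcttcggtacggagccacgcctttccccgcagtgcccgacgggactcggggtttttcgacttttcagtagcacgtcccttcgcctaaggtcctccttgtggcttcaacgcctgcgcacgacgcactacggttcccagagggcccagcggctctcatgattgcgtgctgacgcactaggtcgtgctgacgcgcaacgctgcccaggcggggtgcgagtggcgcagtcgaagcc
Snrpd3: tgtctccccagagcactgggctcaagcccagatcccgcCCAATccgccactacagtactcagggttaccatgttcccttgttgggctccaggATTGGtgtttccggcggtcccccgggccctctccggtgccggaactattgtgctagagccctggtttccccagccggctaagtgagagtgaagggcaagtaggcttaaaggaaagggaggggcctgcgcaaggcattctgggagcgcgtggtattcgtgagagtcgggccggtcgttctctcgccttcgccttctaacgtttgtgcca

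Only Pym1 of these 6 held GGATTA, read as TAATCC on the gene's strand. Raver1, Hnrnpl and Snrpd3 held CCAAT, and Sf3a2 and Srrm2 held none of the 4 motifs. A promoter entry was found for 58 of the 65 member genes. GGATTA stood in 6 of these (10.34%), against 7.16% of 27025 promoters of the same length. CACGTG was found in 6 (10.34%, against 7.24% of all), CCAAT in 29 of the 58 (against 37.92% of all) and TATAAA in 5 (8.62%, against 14.16%). The member promoters held a median of 25 CG dinucleotides, against 7 over all promoters. A match is only a run of letters, and no binding was measured here.

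Across the 3 clones, no splicing gene changed with induction beyond the spread between arrays. With limma on all 6 arrays, 0 of the 189 member probe sets passed an adjusted p of 0.05, as did 0 of all 45037 (0.0%), with a smallest adjusted p of 1.00. An unadjusted p under 0.05 was found for 2 member probe sets and for 436 of all probe sets, and the per-gene test that the methods name likewise left 0 after adjustment. The fitted differences of the members lay between -0.81 (Pym1) and 0.37 (Srrm2). A log2 difference of 1 is a 2-fold change. The median over the 65 genes, each by its brightest probe set, was -0.01, with clone A1 at -0.01, B3 at -0.03 and C6 at 0.02, beside a median of -0.002 over all genes. In bulk RNA a lower level can come from fewer cells of a type or from less RNA per cell, which cannot be told apart here. The unadjusted 95% interval of a member's difference reached 0.27 to either side in the median of those at or above a mean of 6. It is no limit of detection, since a call needed an adjusted p under 0.05 over 45037 probe sets. With 3 arrays per group, larger differences such as -0.81 for Pym1 and -0.36 for Prpf4b (1451732_at) were not called either.

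The induced and uninduced arrays did not overlap in 5 of the 189 member probe sets, a share below the 4.55% of all probe sets. Hnrnpr stood at 9.24, 9.06 and 9.10 in the induced A1, B3 and C6 arrays, against 9.32, 9.44 and 9.37 in the uninduced ones (1452030_a_at). Its difference was -0.24 ± 0.10 (SE, n = 3 per group). Prpf4b, a kinase that acts on the tri-snRNP, stood at 5.67, 5.17 and 5.68 after induction, against 5.92, 5.80 and 5.87 without it (1451732_at). These were the member probe sets with an unadjusted p under 0.05, and the induced arrays were the lower ones in both, although the brightest probe sets of the 2 genes differed by 0.01 and 0.02. The other 3 were a probe set each of Prpf19 (0.22), Hnrnpk (-0.08) and Hnrnpc (-0.09). Those of Prpf19 (1444939_at) and Hnrnpc (1458139_at) were dim, with means of 4.81 and 2.84. That of Hnrnpk (1448176_a_at) had a mean of 12.81.

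The clones were then compared with each other, since A1 was known to run opposite. The difference of clone A1 was tested against the mean of those of B3 and C6, which is called the A1 contrast here. A positive value means that A1 moved up relative to the other clones. Higher or lower in A1, here and below, means the sign of this contrast and not the level in A1. With 1 clone against 2, the fit has 1 residual degree of freedom and A1 is assumed to vary like the others. The contrast was chosen because A1 had been seen to run opposite, so its p-values order the probe sets by size against spread and are no independent evidence that A1 differs. The contrast was past an adjusted p of 0.05 in limma for 14 of the 189 member probe sets (7.41%), of 10 genes, against 1219 of 45037 (2.71%) of all probe sets. Of these 10 were higher in A1 (1.71% of all probe sets were) and 4 lower (0.999%). Dim probe sets seldom pass, and the members are brighter than most: when the test was kept to those at or above a mean of 6 the contrast called 20 of 156 members (12.8%) and 13.7% of all, so that at like brightness the share of splicing genes was near the background. With 1 probe set per gene it called 7 of 65 genes, beside 2.52% of all. The A1 contrast cannot be tested without A1, and the clones B3 and C6 alone, with the clone as a block, called 13 member probe sets, 3 higher and 10 lower after induction, beside 2.18% of all probe sets (0.87% higher and 1.31% lower). That fit rests on 2 pairs left after the clone that ran opposite was set aside, and without the block the same 4 arrays called 0. Those fits share the arrays of B3 and C6, so the counts are not independent of each other.

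**Figure D2:**
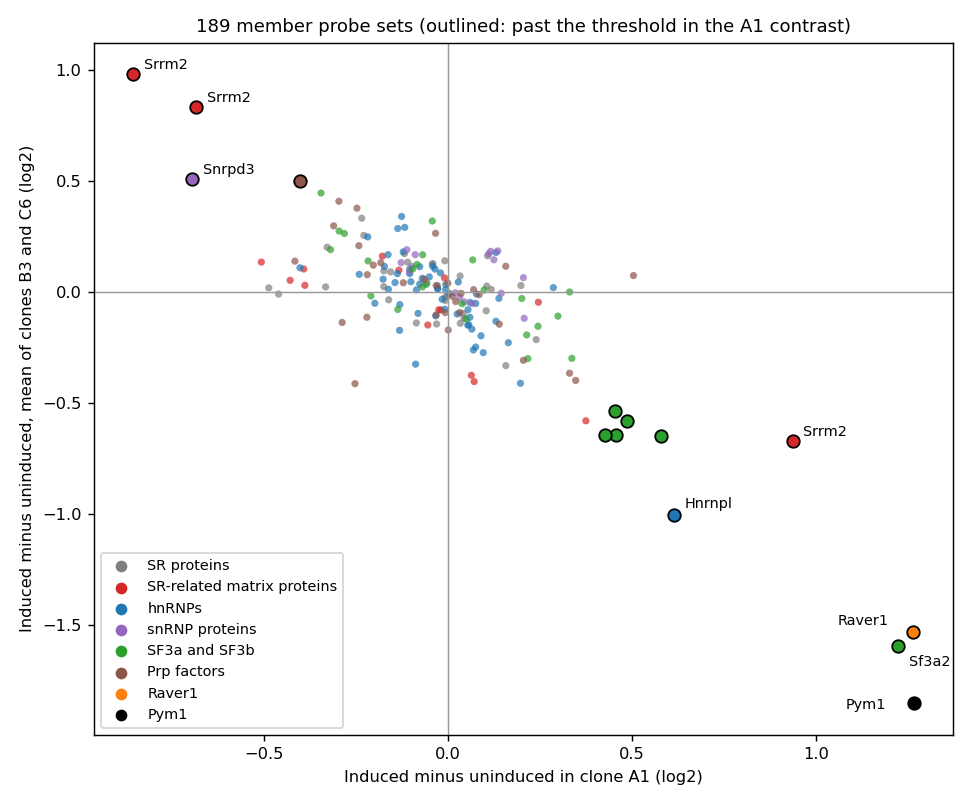
Induced minus uninduced difference (log2) in clone A1 (x axis) against the mean difference of clones B3 and C6 (y axis) for the 189 member probe sets, coloured by role, with those past the threshold in the A1 contrast outlined. Most lie near 0, and the 14 outlined ones lie in the 2 quadrants where A1 and the other clones moved in opposite directions.

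Pym1 and Raver1 showed the largest movements of the members with only 1 probe set. Both were put among the members by name with earlier results known, so their p-values are no independent support for the pattern. Pym1 binds the Y14 and Magoh proteins and takes exon junction complexes off messenger RNA during translation. Its level was 7.76 in the induced A1 array, 6.52 in induced B3 and 5.73 in induced C6, against 6.49, 7.97 and 7.98 in the uninduced arrays (1453315_at). The groups overlapped, since induced A1 lay with the uninduced arrays of B3 and C6 and uninduced A1 with the induced ones. Pym1 averaged 6.67 ± 1.02 in induced and 7.48 ± 0.86 in uninduced arrays (SD, n = 3 each), and its A1 contrast was 3.12 (95% interval 2.46 to 3.77, limma adjusted p = 0.0024). Induced minus uninduced, clone A1 gave 1.27, clone B3 -1.45 and clone C6 -2.25.

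Raver1 binds the polypyrimidine tract protein PTBP1 and acts with it to repress exons. It stood at 9.60, 8.61 and 7.71 in the induced A1, B3 and C6 arrays, against 8.33, 9.73 and 9.65 in the uninduced ones (1427110_at). As for Pym1, the order of the arrays was turned round in A1. The A1 contrast was 2.79 (95% interval 2.13 to 3.46, limma adjusted p = 0.0036). Raver1 lies at chr9:21074158-21091999 and Pym1 at chr10:128747879-128766568.

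**Figure D3:**
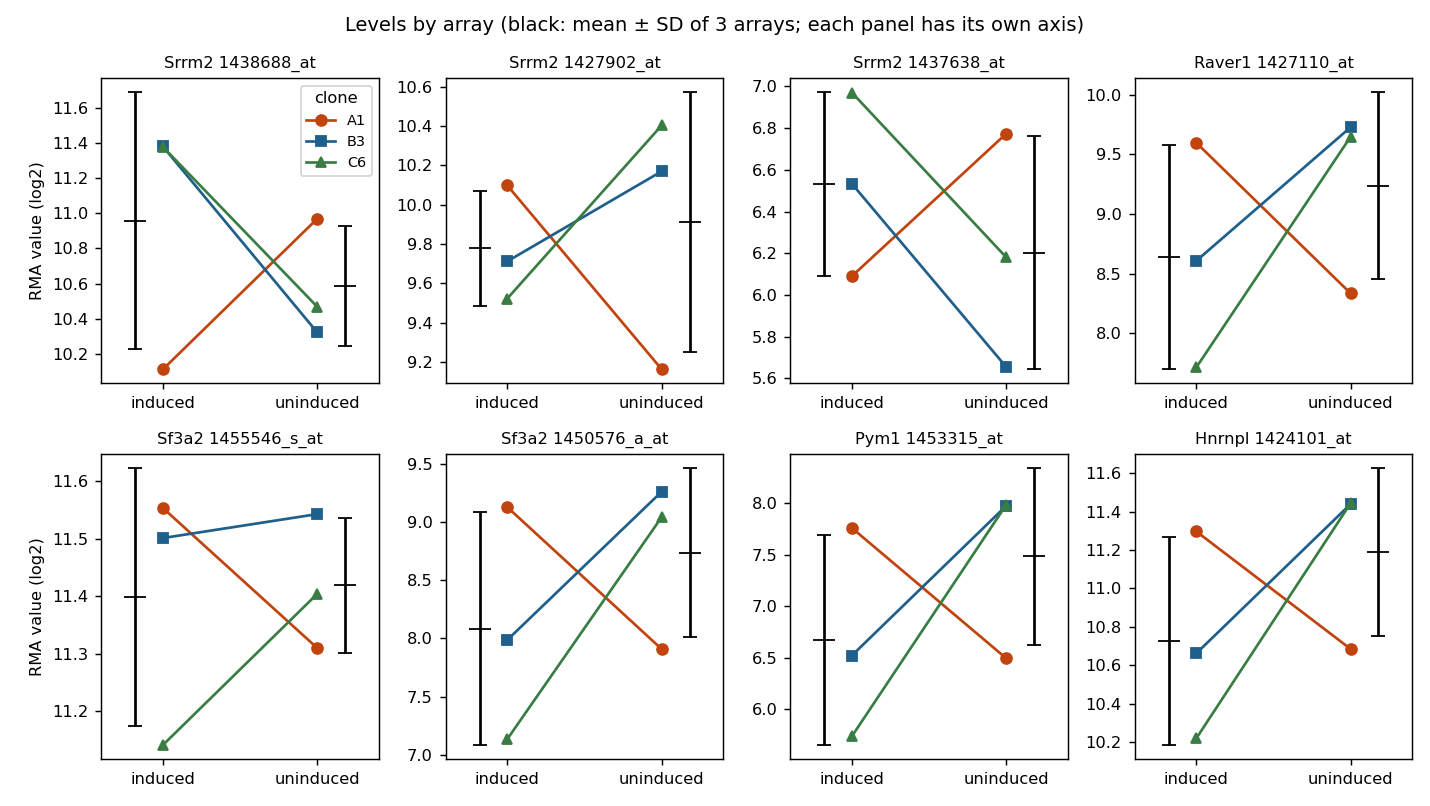
RMA values (log2, y axis) of 8 probe sets of Srrm2, Raver1, Sf3a2, Pym1 and Hnrnpl in induced and uninduced arrays, with a line per clone and the mean ± SD of 3 arrays in black. In 7 panels the line of A1 slopes against those of B3 and C6 by at least 0.46 in every clone, while the brighter Sf3a2 probe set (1455546_s_at) stays between 11.14 and 11.55.

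Among the SR-related matrix proteins, Srrm2 passed in both directions. Its 3 probe sets were the only ones called of the 17 of this family, beside 2.71% of all. With the test kept to a mean of at least 6 it was 4 of 7, beside 13.7% of all. Srrm2 is a very large protein of the spliceosome and of nuclear speckles, the bodies where splicing factors gather, and its gene lies at chr17:23790527-23824741. Its brightest probe set (1438688_at) stood at 10.11, 11.38 and 11.38 in the induced A1, B3 and C6 arrays, against 10.97, 10.32 and 10.47 in the uninduced ones, an A1 contrast of -1.84 (95% interval -2.26 to -1.42, limma adjusted p = 0.0033). The next (1427902_at) went the other way on the same arrays. It stood at 10.10, 9.71 and 9.52 after induction, against 9.16, 10.17 and 10.40 without it, a contrast of 1.61 (1.11 to 2.10, adjusted p = 0.0103). The dimmest (1437638_at) followed the first, with 6.09, 6.53 and 6.97 in induced arrays and 6.77, 5.65 and 6.18 in uninduced ones, a contrast of -1.52 (-1.93 to -1.10, adjusted p = 0.0067). The 3 probe sets of Srrm2 were thus called both ways, as were those of 17 genes of the whole array, Srrm2 included. Srrm1, which bridges splicing factors bound to exons, had no probe set past the threshold in the test over all probe sets. Its 4 bright ones had contrasts from -0.34 to 0.95. The one with 0.95 (1420934_a_at) passed when dim probe sets were left out of the test. Srrm3 and Srrm4, known for the small exons of neurons, were dim, with means of 4.61 and 5.14.

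The SF3a and SF3b proteins, which hold the U2 snRNP at the branch site, gave 6 of the 14 called probe sets, all higher in A1. That is 6 of their 30 probe sets, 3 of them of Sf3b2, beside 2.71% of all. With the test kept to a mean of at least 6 it was 8 of 25, beside 13.7% of all. Among these 8 was 1438637_x_at of Sf3b2, which was lower in A1. Of the 25 that reached a mean of 6, 19 had A1 opposite to both other clones, beside 60.3% of all of that brightness. Sf3a2 was called in its dimmer probe set only (1450576_a_at), with 9.13, 7.99 and 7.13 in the induced A1, B3 and C6 arrays and 7.91, 9.26 and 9.05 in the uninduced ones. The contrast was 2.82 (95% interval 2.24 to 3.40, limma adjusted p = 0.0024). The brighter probe set of Sf3a2 (1455546_s_at) stood at 11.55, 11.50 and 11.14 after induction, against 11.31, 11.54 and 11.40 without it, a contrast of 0.40 (-0.04 to 0.83, adjusted p = 0.344). Sf3a1, the largest SF3a subunit, had 10.60, 10.28 and 9.91 in induced arrays and 10.14, 10.73 and 10.75 in uninduced ones (1449333_at). That contrast was 1.10 (limma adjusted p = 0.0335). The other bright probe set of Sf3a1 (1419087_s_at) had 0.09 (limma adjusted p = 0.883). Sf3b4, an RNA-binding subunit that meets the transcript near the branch site, had a contrast of 1.07 (adjusted p = 0.0318), with 11.75, 11.28 and 10.75 after induction against 11.26, 11.70 and 11.49 without it (1424619_at). In the called probe sets of Sf3a1 and Sf3b4, uninduced A1 and the induced arrays of B3 and C6 were the low ones. Sf3b2, the partner of Sf3b4, was called in 3 of its 7 probe sets, with contrasts of 0.99, 1.07 and 1.23. Sf3b1, the subunit that clamps the branch site, and Sf3b3 had contrasts of 0.17 and 0.51 in their brightest probe sets, but 1418562_at of Sf3b1 had -0.36 and 1430075_at of Sf3b3 had -0.06. Sf3b6, which touches the branch adenosine, had -0.57, -0.55 and -0.51 in its 3 bright probe sets. None of these passed the threshold.

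**Figure D4:**
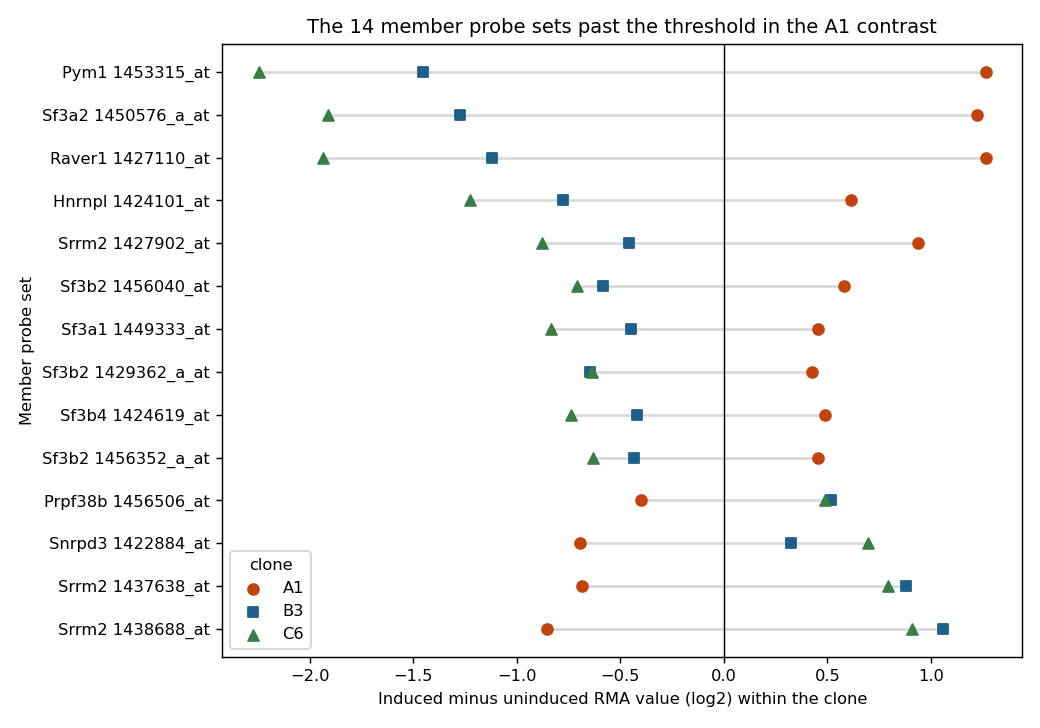
Induced minus uninduced difference (log2, x axis) within each clone for the 14 member probe sets past the threshold in the A1 contrast, ordered by that contrast. In every row the point of A1 lies on the other side of 0 than those of B3 and C6, which the choice of rows favours but does not require.

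Among the hnRNPs, 1 of 58 probe sets was called, beside 2.71% of all. With the test kept to a mean of at least 6 it was 1 of 52, beside 13.7%. Differences between the families were not tested. Hnrnpl, which binds CA repeats and can silence or activate exons, stood at 11.30, 10.66 and 10.22 in the induced A1, B3 and C6 arrays, against 10.68, 11.44 and 11.44 in the uninduced ones (1424101_at). Its contrast was 1.61 (95% interval 1.11 to 2.12, limma adjusted p = 0.0106), where clone A1 differed by 0.61, B3 by -0.78 and C6 by -1.22. The other 18 genes of the family had contrasts between -0.22 (Hnrnpc) and 0.61 (Hnrnpul1) by their brightest probe sets, and the median of the 19 was -0.02. Hnrnpll, the near relative of Hnrnpl, had 0.04, with 11.01, 10.88 and 11.02 after induction against 11.14, 11.01 and 11.23 without it (1425255_s_at). Its other probe set (1427144_at) had 10.05, 10.18 and 10.53 after induction against 10.27, 9.97 and 10.24 without it, a contrast of -0.47 (limma adjusted p = 0.233).

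Of the 17 probe sets of snRNP proteins, 1 was called, beside 2.71% of all. At a mean of at least 6 it was 1 of 15, beside 13.7%. Snrpd3 encodes SmD3, a member of the Sm ring, and its brightest probe set (1422884_at) had 11.41, 11.86 and 12.15 in induced A1, B3 and C6 and 12.11, 11.54 and 11.45 in the uninduced arrays. The contrast was -1.21 (95% interval -1.68 to -0.73, limma adjusted p = 0.0231). The 2 dimmer Snrpd3 probe sets had contrasts of -0.05 and -0.02 and were higher after induction in all 3 clones, by 0.11 to 0.21. The other Sm genes Snrpb, Snrpe, Snrpf and Snrpg had contrasts between -0.06 and 0.15 over all their probe sets. By the brightest probe sets Snrpc, of the U1 snRNP, had -0.26, and Snrpa1 and Snrpb2, of the U2 snRNP, had -0.30 and -0.22, none past the threshold.

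None of the 33 probe sets of SR proteins passed the A1 contrast (smallest adjusted p = 0.179 in limma), beside 2.71% of all. At a mean of at least 6, 0 of 30 passed, beside 13.7%. The contrasts of the 33 lay between -0.57 and 0.49. By the brightest probe set the smallest p-values belonged to Srsf9 (0.45), Srsf10 (-0.27) and Srsf5 (-0.25). Srsf9 stood at 10.87, 10.88 and 11.04 in the induced A1, B3 and C6 arrays, against 10.63, 11.11 and 11.23 in the uninduced ones, and the groups overlapped. The brightest probe set of Srsf11 was lower after induction in each clone, by -0.09, -0.13 and -0.14, which did not pass (difference of -0.12 ± 0.09, SE, n = 3 per group), while 1427269_at differed by -0.23, 0.20 and 0.32. The 32 probe sets of Prp factors gave 1 call, beside 2.71% of all, and 4 of 25 at a mean of at least 6, beside 13.7%. The 1 call was in a dim probe set of Prpf38b (1456506_at, mean 4.72, contrast of -0.90, adjusted p = 0.0379). The 2 bright probe sets of that gene had 0.04 and -0.06. Prpf8, the scaffold of the catalytic centre, had a contrast of 0.69 (adjusted p = 0.0877) and Prpf19, a ubiquitin ligase of the activated spliceosome, had -0.71 (adjusted p = 0.0857) by its brightest probe set. Both passed when dim probe sets were left out of the test, as did 1454789_x_at of Prpf6 (-0.63). So did 1460633_at of Prpf19 (0.74), so that Prpf19 was then called in both directions.

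Probe sets of the same gene were compared in the 42 member genes with at least 2 of them at a mean of 6. The median range between probe sets of a gene in the A1 contrast was 0.43, beside 0.41 over 3936 such genes of the array. Both signs were found in 28 of the 42 (66.7%), against 48.6% of all. A gene with more probe sets has more chances of both signs and of a wide range. The groups were not matched for that number, so the shares cannot show that splicing genes differ. The widest ranges were those of Srrm2 (3.44), Sf3a2 (2.42), Sf3b2 (2.02), Prpf19 (1.45), Srrm1 (1.29), Snrpd3 (1.18), Sf3a1 (1.01) and Prpf6 (0.91). In Sf3b2 the 3 called probe sets stood against 1438637_x_at, with 10.20, 10.76 and 10.86 in the induced A1, B3 and C6 arrays and 10.55, 10.41 and 10.32 in the uninduced ones, a contrast of -0.79 (adjusted p = 0.0659). With dim probe sets left out of the test, 1438637_x_at passed as well, so that Sf3b2 was then called in both directions. The brightest Sf3b2 probe set had 0.40. In Prpf19 the contrast was -0.71 in 1456531_x_at and 0.74 in 1460633_at, with the other 2 bright ones at 0.12 and 0.06. In Prpf6, a bridge of the tri-snRNP, it was 0.28 and -0.63.

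The ending of a probe set name tells how specific its oligonucleotides are, and _x_at marks sets in which some of them match other sequences. In 11 of the 15 member genes with both kinds, the _x_at sets had a lower A1 contrast than the others of that gene (median difference of -0.28), a share of 73.3%, as they had in 579 of 744 genes over the array (77.8%, median of -0.27). No placement of the probe sets on exons or untranslated regions was made. Between the genomic length of a gene and its contrast, Spearman's rho across genes was 0.09 for the 61 members and -0.11 for 9544 genes with a mean of at least 6, where genes share the same arrays and are not independent.

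**Figure D5:**
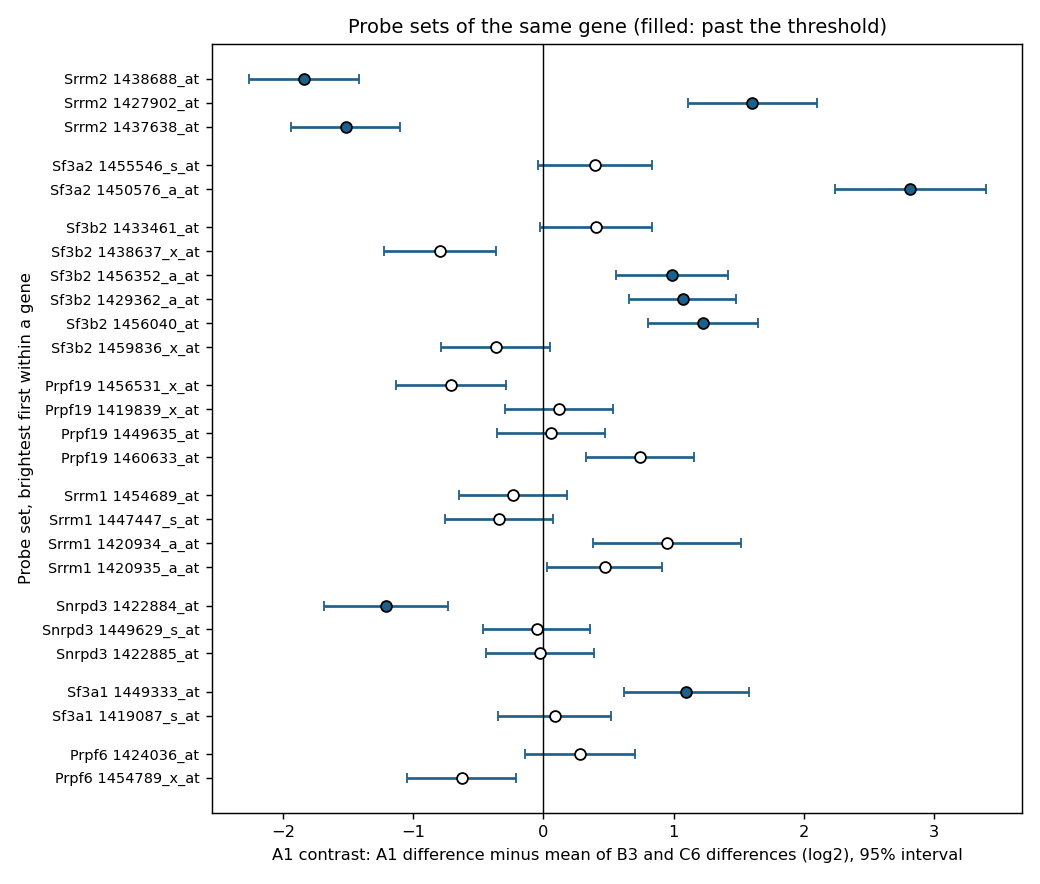
A1 contrast (log2, x axis) with its 95% interval for the probe sets of the 8 member genes with the widest range between probe sets, brightest first within a gene and filled where past the threshold. The 3 Srrm2 probe sets lie on both sides of 0 with intervals that exclude it.

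The wider splicing machinery was read from 8 lists of 134 genes, of which 121 were measured by 339 probe sets. The A1 contrast called 17 of these (5.01%), 6 higher and 11 lower in A1, beside 2.71% of all probe sets (1.71% higher and 0.999% lower), and none of the 339 passed the comparison over 3 clones. With a mean of at least 6 it called 33 of 245 (13.5%), beside the 13.7% of all. In the U2 and branch site list, 2 of 22 probe sets were called, both of Sf1, the protein that first reads the branch site. The first (1422321_a_at) had 8.93, 8.003 and 7.33 in induced A1, B3 and C6 and 7.92, 8.87 and 8.96 in the uninduced arrays, a contrast of 2.25. PTBP1, the partner of Raver1, is encoded by Ptbp1, which was called in 1 of its 3 probe sets with 12.81, 12.50 and 12.12 after induction against 12.25, 12.90 and 12.77 without it, a contrast of 1.09 (limma adjusted p = 0.0251). For both genes the induced A1 array lay with the uninduced arrays of the other clones. The list of SR protein kinases, which also holds Pnisr, a nuclear protein rich in arginine and serine, had 3 of 23 probe sets called. Each was lower in A1, with contrasts of -1.41 in 1 of 6 probe sets of Srpk2, -1.09 in 1 of 7 of Pnisr and -0.89 in 1 of 2 of Srpk1. In the list of proteins that assemble snRNPs, 1 of 21 was called, a probe set of Strap (1419913_at), a subunit of the SMN complex, with 5.79, 6.60 and 7.32 in induced arrays and 6.88, 5.45 and 5.89 in uninduced ones and a contrast of -2.38. The lists of other snRNP proteins (1 of 34, Snrnp48), of the Prp19 complex and catalytic step (1 of 54, Ppie), of Lsm proteins (1 of 10, Lsm2) and of the exon junction complex (1 of 23, Acin1) gave 1 call each, and the list of other splicing regulators gave 7 of 152.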

How the data were processed

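Total RNA of 6 samples was hybridized to Affymetrix whole-genome mouse arrays. The deposited values were log2 probe-set levels, produced by the authors with the RMA method (robust multiarray averaging) of the affy package, versions not given in the sources used here; they were used as they stood. Of 45101 probe sets, 64 controls were left out of the tests. Genes were named from the platform annotation and placed with RefSeq on GRCm38.p6. Groups and clones were taken from the titles. Tests were two-sided limma 3.58.1 fits in R 4.3.3 (lmFit and eBayes) adjusted by Benjamini-Hochberg across the 45037 remaining probe sets, with a threshold of 0.05 and checked on simulated data; limma stood in for the methods' t-test, which was run as an alternative. The A1 contrast was fitted on the 3 within-clone differences. The number of arrays limits the precision.

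The same clone stood in both groups, and the deviations of its 2 arrays from the group means correlated at 0.19 for A1, 0.53 for B3 and 0.31 for C6, so that the clone pairs the arrays. The methods name no pairing, so the fit without the block was used, with the block beside it.

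The members, the gene lists and the A1 contrast were chosen with earlier results of these data known. Genes were named by rule: every probe set of Srrm2, Sf3a2, Raver1 and Pym1, every called member, the 3 genes per family with the smallest p in each fit, the 8 genes with the widest range between probe sets, the highest and lowest means, and the called genes of each list; further genes were named for comparison after their values were seen. Alternatives concerned the fit (the block, another test or prior, weights on arrays, single arrays or clones left out) and the values (scaling, minimum brightness, the brightest probe set of a gene, the threshold). Protein features were not run.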

Additional observations from a re-analysis of the deposited data

Results flagged for a closer look

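The induced minus uninduced difference of clone A1 departed from that of B3 and C6 for 14 member probe sets (limma, adjusted p under 0.05). The comparison sets 1 clone against 2 and was chosen with the opposite run of A1 known, so it describes that run and gives no independent support for it. The A1 contrast was 3.12 for Pym1, 2.79 for Raver1, 2.82 for Sf3a2 (1450576_a_at) and 1.61 for Hnrnpl. It was 1.10 for Sf3a1 (1449333_at) and 1.07 for Sf3b4 (1424619_at). It was 0.99, 1.07 and 1.23 for 3 probe sets of Sf3b2. For Srrm2 it was -1.84 and -1.52 in 2 probe sets and 1.61 in the other. It was -1.21 for Snrpd3 and -0.90 for the dim probe set of Prpf38b.

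In the lists of other splicing genes the same contrast was called in single probe sets, most of them 1 of several for the gene. Higher and lower stand for the sign of the contrast and not for the level in A1. Higher in A1 were 2 of the 5 probe sets of Sf1 (2.25 and 1.20), 1 of 3 of Ptbp1 (1.09), 1 of 4 of Rbfox2 (0.91), 1 of 2 of Acin1 (0.86) and the only one of Lsm2 (0.87). Lower in A1 were 1 of 3 of Strap (-2.38), 1 of 6 of Srpk2 (-1.41), 1 of 4 of Snrnp48 (-1.11), 1 of 7 of Pnisr (-1.09), 1 of 2 of Esrp2 (-1.06), 1 of 2 of Srpk1 (-0.89) and the only one of Ppie (-0.93). Also lower were 1 of 6 of Rbm25 (-0.89), 1 of 5 of Celf1 (-0.89), 1 of 12 of Rbm39 (-0.83) and 1 of 2 of Taf15 (-1.05), the last a dim one with a mean of 3.28.

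The control probe sets, which no comparison used, carried a signal for 18S ribosomal RNA: the 3′ set reached 9.15 in the induced C6 array, above the highest uninduced array at 7.76. Its part in the values of the splicing genes was not tested.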

How the results depend on the processing

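For the comparison of induced with uninduced arrays, the count of called probe sets stayed at 0, for the members and for all, under every alternative run but 1, the replicate block with a value of 0 included. The exception was leaving out clone A1 with the clone as a block, which called 981 probe sets and 13 member probe sets. The replicate block changed no other call. For the A1 contrast, an intensity trend with a robust prior called 2939 probe sets and 27 members, and 1 probe set per gene called 458 and 7, with fewer features tested. A mean of at least 6 called 2355 probe sets, and a mean of at least 8 called 1885 and 24 members. The cause of these increases was not tested. An adjusted p under 0.1 called 2642, where a looser threshold on the same fit cannot call fewer. Leaving out an array or a clone could not be fitted for the A1 contrast, which needs all 3 differences. The median difference of the member genes moved by less than the SD of the clone medians (0.03) in each of 6 alternatives. Of the 50 member probe sets named by rule, no called value changed sign under any alternative, and 100 changes of sign concerned values not called. All values called in the main fits belonged to the A1 contrast. Its estimates could move only under median centring and quantile normalization, so the kept signs are a weak check. Dim probe sets limit what could be seen in Srrm3, Srrm4 and Srsf12.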
